A study of Homo sapiens with 6 samples.

Results

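The imprinted growth genes described here are H19, IGF2, MEG3, DLK1, PEG10, SGCE, NNAT, MEST, GNAS and SNRPN, 10 of the 56794 named genes of the expression table. They were taken by name from the gene column of that table, and the level of a gene is the sum over its transcripts. The cells are HEK293, a line derived from human embryonic kidney, and 3 RNA libraries labelled CASP8AP2 mutant stand against 3 labelled parental. The mutant cells carry luciferase and a CRISPR deletion of CASP8AP2, a gene of histone mRNA 3' end processing, and the parental cells carry luciferase with CASP8AP2 left as it was. Both were grown in the same serum-containing medium, with no treatment that differed. Whether the mutant line is a single clone, and whether the 3 libraries of a group came from separate cultures, is not stated in the labels, so the authors' p-values measure the spread between these libraries.

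An imprinted gene is read mainly from the copy inherited from the mother or from the copy inherited from the father. The choice is set by DNA methylation laid down in the germ line at control regions, each of which serves a cluster of genes. Paternally expressed members such as IGF2, DLK1 and PEG10 are known to promote fetal or placental growth, while maternally expressed ones such as H19 and MEG3 are noncoding RNAs linked to restraint of growth. These data hold total RNA levels and do not separate the copies from mother and father.

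Levels are abundances, that is, group means per transcript length with the authors' added 1 taken off, and every log2 value below is the ratio of mutant over parental taken on abundance plus 1. A gene was kept when its abundance reached at least 1 in either group, which 14856 genes did. The depth of the libraries, estimated from the size of 1 read, was 13297800 to 57500400 reads in the mutant group and 9185690 to 15307800 reads in the parental group. The deepest library had 6.26 times the reads of the shallowest. Abundances of the 2 groups summed to the same total, and the median log2 ratio of the kept genes was -0.01. CASP8AP2 itself had an abundance of 15.7 in mutant and 15.9 in parental cells, so its level does not check the labels. All 10 kidney-line markers examined, among them VIM, PAX2 and LHX1, were detected in both groups and 10 of 10 were kept, at a summed abundance of 1098 in mutant and 650 in parental cells. NEFL made up 434 of that sum in mutant and 35.7 in parental cells, and 7 of the 10 were lower in mutant cells, with a median log2 ratio of -0.12. LHX1 and NEFM were kept through the parental group alone, so 2 of the 7 had to be lower. The neurofilament gene NEFM was at 0.0690 in mutant and 8.63 in parental cells, and KRT8 at 37.3 in mutant and 70.6 in parental cells. Their most abundant transcripts had p = 0.00690 for NEFM and p = 0.0178 for KRT8 by the authors' deposited table, which tests transcripts and not gene sums. Of the fibroblast markers 2 of 6 were kept, COL1A1 at 5.82 in mutant and 2.17 in parental cells and LUM at 1.06 and 1.49 in the same order, and the list summed to 7.25 and 4.34 with COL1A2 at 0. None of the 5 blood markers was kept, with CD3E and HBB at 0, and none of the 3 liver markers was. Of the 5 placental markers CGA alone was kept, at 2.91 in mutant and 4.50 in parental cells. The part of these differences in the results below was not tested.

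The start regions of 2 members are shown first because their transcripts differ in level by orders of magnitude. A promoter window was matched by symbol for 5 of the 10 members, H19, MEG3, MEST, GNAS and SNRPN, in RefSeq on build GRCh38.p14. Each window runs from 250 bases before to 50 bases after an annotated start. GNAS has several starts, of which NESP55 encodes a neuroendocrine secretory protein and is read from the maternal copy. The XL start gives a long form of the Gs alpha protein and, like the noncoding A/B start, is read from the paternal copy. The SNRPN window is at a start within the imprinted region of chromosome 15. Capitals mark CpG, the pair of bases at which DNA is methylated.
GNAS NESP55 window, chr20:58839498-58839797, plus strand: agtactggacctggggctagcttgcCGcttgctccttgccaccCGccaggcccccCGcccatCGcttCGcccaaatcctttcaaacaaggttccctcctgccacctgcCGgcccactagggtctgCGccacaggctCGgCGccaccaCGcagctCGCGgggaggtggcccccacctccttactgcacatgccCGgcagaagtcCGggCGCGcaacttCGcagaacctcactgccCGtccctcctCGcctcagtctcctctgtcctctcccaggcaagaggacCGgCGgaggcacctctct
GNAS XL window, chr20:58852466-58852765, plus strand: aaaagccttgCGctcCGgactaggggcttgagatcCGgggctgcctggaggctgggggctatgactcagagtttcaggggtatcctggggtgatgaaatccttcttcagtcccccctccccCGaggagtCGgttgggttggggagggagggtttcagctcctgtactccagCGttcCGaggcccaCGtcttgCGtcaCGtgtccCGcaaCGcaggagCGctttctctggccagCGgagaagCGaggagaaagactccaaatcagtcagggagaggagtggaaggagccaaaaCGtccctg
GNAS A/B window, chr20:58888930-58889229, plus strand: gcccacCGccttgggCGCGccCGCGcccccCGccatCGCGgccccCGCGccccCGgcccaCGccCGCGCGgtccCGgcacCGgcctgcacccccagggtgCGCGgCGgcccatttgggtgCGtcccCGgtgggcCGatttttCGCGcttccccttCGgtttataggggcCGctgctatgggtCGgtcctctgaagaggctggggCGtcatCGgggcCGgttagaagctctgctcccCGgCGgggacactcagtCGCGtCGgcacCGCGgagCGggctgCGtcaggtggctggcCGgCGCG
SNRPN window, chr15:24954737-24955036, plus strand: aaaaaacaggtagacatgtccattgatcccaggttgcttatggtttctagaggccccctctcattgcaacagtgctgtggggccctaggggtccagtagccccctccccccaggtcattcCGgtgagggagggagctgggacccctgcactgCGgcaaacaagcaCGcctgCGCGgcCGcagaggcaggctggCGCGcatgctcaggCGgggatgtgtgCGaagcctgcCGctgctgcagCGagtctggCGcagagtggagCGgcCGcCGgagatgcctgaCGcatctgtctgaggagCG

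The A/B window held 43 CpG, and 4.98% of the 35116 windows held as many, against a median of 14. The NESP55 window held 21 CpG, the XL window 16 and the SNRPN window 18. The letters TGCCGC, the motif of the imprint-keeping protein ZFP57, which itself contains a CpG, were searched on both strands. They occurred 2 times in the SNRPN window and 1 time in the NESP55 window, were not among the letters of the XL and A/B windows, and stood in 16.7% of all windows. The letters TATAA were found 1 time in the A/B window and in 20.4% of all windows, also on both strands. A further sequence is the 45-base cassette exon of GNAS, which is included in or left out of the Gs alpha mRNA to give its long and short forms. It is printed with its exon in capitals and 12 bases of the neighbouring exons of GNAS-210 on each side.
GNAS cassette exon, chr20:58898941-58898985, hg38, plus strand: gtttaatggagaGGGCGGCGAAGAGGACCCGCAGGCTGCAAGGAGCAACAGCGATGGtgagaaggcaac

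The 10 members ran from genes listed at 0 to a highly expressed gene. DLK1 and SNRPN were listed at 0 in both groups, and MEG3, NNAT and MEST were below 0.1 in both. PEG10 and H19 lay below 1, and IGF2, SGCE and GNAS were kept, each with an abundance above 1 in both groups. GNAS was the highest, and its parental level ranked 94 among the 14856 kept genes, with SGCE at 4302 and IGF2 at 8094. Of the 3 kept members 1 was higher and 2 were lower in mutant cells, with a median log2 ratio of -0.14, which is the value of SGCE.

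**Figure D1:**
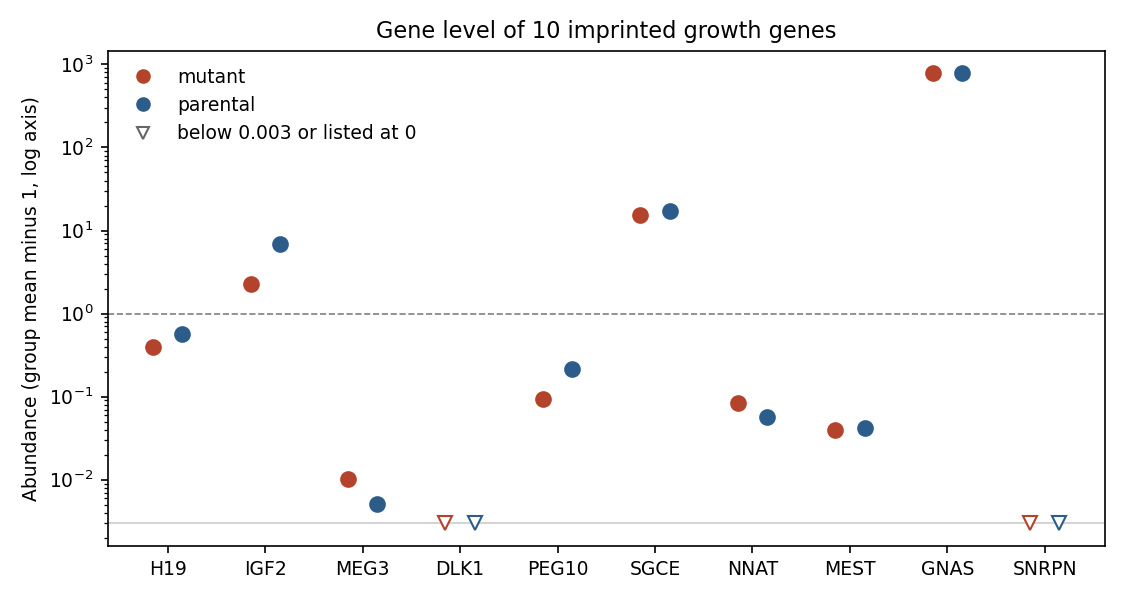
Abundance of the 10 members in mutant (left point of each pair) and parental cells (right point) on a log axis. Points are group means of 3 libraries summed over transcripts, open triangles are genes listed at 0, and the dashed line is the abundance of 1 above which a gene was kept. IGF2 has the widest gap of the 3 kept members, 2.30 in mutant and 6.83 in parental cells.

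The table held 251 transcripts of the members, and 175 of them had a p-value by the authors' deposited table. None passed an adjusted p of 0.05 there, where 31 of all 140552 tested transcripts, 0.0221%, did. The smallest adjusted p of a member transcript by the authors' deposited table was 0.304, for GNAS-251. At an unadjusted p under 0.05, 10 of the 175 passed, 5.71%, against 5.79% of all tested transcripts, so the share of the members was near that of the table. Of the 175, 6 passed and were higher in mutant cells, 3.43%, against 3.3% of all tested transcripts. Another 4 passed and were lower, 2.29%, against 2.48%. The p of 20 tested member transcripts is the one that reads in 1 library of 6 give. The differences below are therefore group means with no spread between libraries printed, and transcripts of a gene share exons, so that the split of reads among them is an estimate.

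IGF2, the paternally expressed growth factor that signals through the IGF1 receptor and the insulin receptor, was at 2.30 in mutant and 6.83 in parental cells. It lies on chromosome 11 at positions 2129112 to 2158658 of hg38, on the minus strand. In bulk RNA fewer expressing cells and less RNA per cell cannot be told apart. The log2 ratio was -1.25 and the plain ratio of abundances 0.337, and 1.61% of the kept genes had a log2 ratio of -1 or less. Its level corresponds to an estimated 535 to 2313 reads over the mutant libraries and 1100 to 1833 reads over the parental ones, the range reflecting which library the reads are counted in. These read numbers bear on counting error only, and the spread between libraries is known from the authors' p-values alone. Those are given per transcript, so the gap in the gene sum was not tested.

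The table listed 11 IGF2 transcripts, of which 7 were tested, and 3 carried nearly all of the level. The most abundant, IGF2-203, had an abundance of 1.62 in mutant and 5.01 in parental cells, with p = 0.104 by the authors' deposited table. IGF2-204, which starts 1684 bases upstream of IGF2-203, was at 0.557 in mutant and 1.10 in parental cells (unadjusted p = 0.00669, adjusted p = 0.521 by the authors' deposited table). IGF2-205 starts 2099 bases upstream and was at 0.107 in mutant and 0.679 in parental cells, with an unadjusted p of 0.0285 and an adjusted p of 0.703 by the authors' deposited table. All 3 were thus lower in mutant cells. The transcripts from the starts more than 12 kilobases upstream, IGF2-208 and IGF2-211, each had 0.00334 in mutant and 0.00843 in parental cells. The short noncoding gene AC132217.1 lies on the last exon of IGF2 on the same strand, so reads of the 2 genes cannot be told apart there. It was at 0.382 in mutant and 5.12 in parental cells. With it added, IGF2 was at 2.68 in mutant and 11.9 in parental cells, a log2 ratio of -1.81, and weighted by length the ratio of the sum was 0.321, against 0.336 for IGF2 alone.

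**Figure D2:**
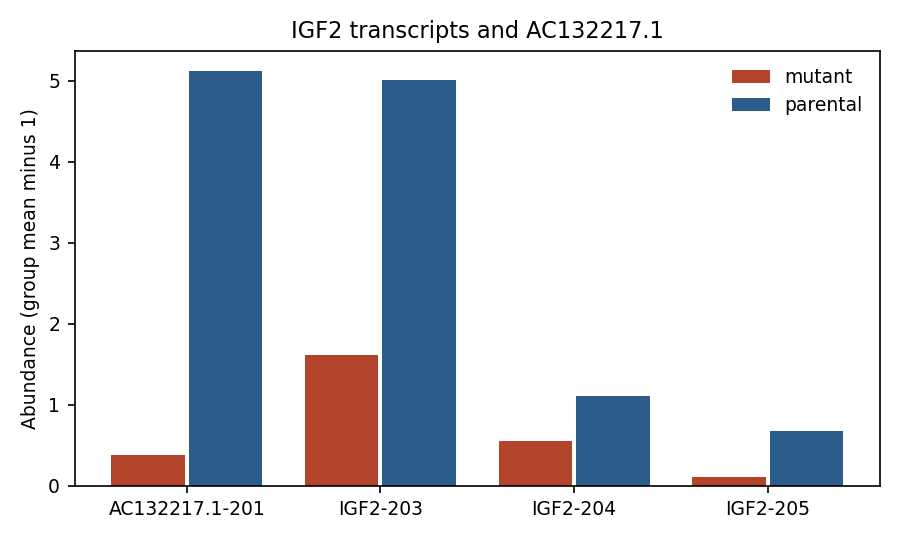
Abundance of the 3 leading IGF2 transcripts and of AC132217.1, which overlaps their last exon, in mutant (left bars) and parental cells (right bars). Bars are group means of 3 libraries and start at 0. All 4 are lower in mutant cells, and IGF2-203 is at 1.62 in mutant and 5.01 in parental cells.

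H19, the maternally expressed noncoding RNA that shares its control region with IGF2, lies at positions 1995176 to 2001470 of chromosome 11, minus strand, hg38. It was low in both groups, at 0.400 in mutant and 0.573 in parental cells, with a log2 ratio of -0.17. The level corresponds to an estimated 30.7 to 133 reads in mutant and 32.3 to 53.8 reads in parental libraries. All 12 of its transcripts were tested, and the one that led differed between the groups. In parental cells H19-202 led, with 0.0371 in mutant and 0.337 in parental cells, and the authors' deposited table gave it an unadjusted p of 0.00706 and an adjusted p of 0.529. In mutant cells H19-203, which has nearly the same start and shares its 3' end, led with 0.148, against 0.0223 in parental cells (p = 0.140 by the authors' deposited table). H19-211 was at 0.0455 in mutant and 0.171 in parental cells. Since H19-202 and H19-203 share most of their sequence, their split at this depth is uncertain, and the gene level is the firmer value.

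The other genes of the 11p15.5 cluster did not follow 1 direction. Of 17 listed genes 7 were kept, 4 higher and 3 lower in mutant cells, with a median log2 ratio of 0.16. SLC22A18, a membrane transporter gene, was at 4.09 in mutant and 1.25 in parental cells, and its leading transcript had p = 0.0316 by the authors' deposited table. The cyclin-dependent kinase inhibitor CDKN1C was at 3.80 in mutant and 3.20 in parental cells. PHLDA2, which restrains placental growth in mouse, was at 9.78 in mutant and 14.8 in parental cells. NAP1L4, a histone chaperone gene, was at 81.8 in mutant and 84.0 in parental cells, while its leading transcript had p = 0.0333 by the authors' deposited table, lower in mutant cells. The remaining 3 were TSSC4 with 32.7 in mutant and 21.5 in parental cells, the tetraspanin CD81 with 227 and 204 in that order, and the mitochondrial ribosomal gene MRPL23 with 77.3 and 81.1. KCNQ1OT1, the antisense RNA that governs the neighbouring part of this cluster, was at 0.0555 in mutant and 0.0362 in parental cells.

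Of the 18 genes of the IGF axis, 12 were kept, 4 higher and 8 lower in mutant cells, with a median log2 ratio of -0.12 beside -0.01 for all kept genes. The leading transcript had an unadjusted p under 0.05 in 1 of the 12, and it was lower in mutant cells. Over all kept genes 8.53% had such a leading transcript lower and 5.27% higher. That gene was IGFBP4, which encodes a binding protein that holds IGF away from its receptor, at 0.141 in mutant and 1.43 in parental cells (p = 0.00212 by the authors' deposited table). It passed the abundance line through the parental group alone, so it had to be lower in mutant cells. PAPPA, the protease that cuts IGFBP4, was not kept and was at 0.101 in mutant and 0.602 in parental cells, with p = 0.00178 for its leading transcript by the authors' deposited table. Of the other genes of this list detected but not kept, IGFBP1, IGFBP6 and IGFALS were higher in mutant cells and PAPPA2 was lower. IGFBP2 was at 18.6 in mutant and 29.1 in parental cells, and IGFBP5 at 10.5 in mutant and 5.41 in parental cells. The receptors had near levels, with INSR at 6.58 in mutant and 7.93 in parental cells and IGF1R at 6.41 and 8.66 in that order. IGF2R, which carries IGF2 to the lysosome, was at 11.8 in mutant and 8.60 in parental cells. The IGF2 mRNA-binding protein gene IGF2BP2 was at 23.5 in mutant and 27.8 in parental cells. IGF1 itself was listed at 0.

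DLK1, a membrane protein of the NOTCH ligand type that keeps precursor cells from differentiating, was listed at 0 in both groups. It lies at positions 100725705 to 100738224 of chromosome 14, plus strand, hg38, and none of its 5 transcripts in the table carried a value. A floor of 3 reads over a group corresponds to an abundance of 0.00599 in mutant and 0.0143 in parental cells for its longest transcript. The listed 0 does not exclude a DLK1 level below these. MEG3, the maternally expressed noncoding RNA of the same cluster, lies at positions 100779410 to 100861031 on the same strand, and 27 of its 48 GENCODE transcripts are in the table. It was at 0.0102 in mutant and 0.00511 in parental cells, an estimated 1.2 to 5.3 reads in mutant and 0.6 to 1.0 reads in parental libraries. At this depth no difference between the groups can be shown.

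The rest of the cluster was also near 0. From DLK1 to DIO3 there were 117 annotated genes that have a unique name and are in the expression table. Of these 3 are protein coding, 40 are snoRNA genes and 54 are miRNA genes. Above 0 in at least 1 group were 4 of the 117, and none reached 0.1. MEG8 was at 0.00967 in mutant and 0 in parental cells, and RTL1, a retrotransposon-derived gene needed in mouse placenta, was listed at 0. Mature miRNAs are too short to be captured well by RNA-seq libraries of this kind, so zeros at miRNA genes say little about them. The snoRNA genes here are short as well, and their zeros are to be read with the same limit. Outside the interval, BEGAIN was at 3.61 in mutant and 3.16 in parental cells, and WDR25 at 3.33 and 2.62 in that order.

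The NOTCH genes that DLK1 bears on were expressed. All 14 listed genes were kept, 8 higher and 6 lower in mutant cells, and a median log2 ratio of 0.05. The ligand gene JAG2 was at 31.9 in mutant and 17.8 in parental cells, and its leading transcript had p = 0.00102 by the authors' deposited table. DLK2, the closest relative of DLK1, was at 3.71 in mutant and 2.84 in parental cells (p = 0.0183 for its leading transcript by the authors' deposited table). Of the target genes HEY1 was at 66.5 in mutant and 46.3 in parental cells, and HES1 was at 27.2 in mutant and 38.4 in parental cells. The receptor gene NOTCH4 was at 0.584 in mutant and 1.26 in parental cells. NOTCH4 and the ligand gene DLL4 were kept through the parental group alone, so 2 of the 6 had to be lower. None of these had an adjusted p under 0.05 by the authors' deposited table.

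SGCE and PEG10 lie head to head on chromosome 7, and both are read from the paternal copy. SGCE, which encodes epsilon-sarcoglycan, a membrane protein mutated in myoclonus-dystonia, runs on the minus strand from 94524204 to 94656572. PEG10, a retrotransposon-derived gene needed for the placenta in mouse, runs on the plus strand from 94656325 to 94669695. The annotated start of SGCE lies 247 bases past that of PEG10, so the annotated 5' ends overlap. The abundant transcripts SGCE-201 and SGCE-231 start at 94656218 and 94656148, short of the PEG10 start. SGCE was at 15.3 in mutant and 16.98 in parental cells, a log2 ratio of -0.14. PEG10 was at 0.0940 in mutant and 0.216 in parental cells, a log2 ratio of -0.15, from an estimated 21.1 to 91.2 reads in mutant and 33.1 to 55.1 reads in parental libraries. SGCE abundance was thus 163 times that of PEG10 in mutant and 78.7 times in parental cells. None of the 7 tested PEG10 transcripts had p under 0.05, and the smallest p by the authors' deposited table was 0.250, for PEG10-208 with 0.0196 in mutant and 0.0793 in parental cells.

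Within SGCE the kinds of transcript differed more than the sum. Transcripts annotated as protein coding summed to 9.60 in mutant and 8.00 in parental cells, which is 62.9% of the gene in mutant and 47.1% in parental cells. Transcripts annotated for nonsense-mediated decay, the pathway that removes mRNA with an early stop codon, summed to 2.96 in mutant and 6.39 in parental cells, or 19.4% and 37.6% in the same order. Retained-intron transcripts were at 2.48 in mutant and 2.40 in parental cells. The decay-annotated SGCE-231 had an abundance of 2.54 in mutant and 4.53 in parental cells, with p = 0.128 by the authors' deposited table. The protein-coding SGCE-205 was at 2.65 in mutant and 0.834 in parental cells (unadjusted p = 0.0159, adjusted p = 0.645 by the authors' deposited table). The coding transcripts SGCE-201 and SGCE-275 were close between groups, SGCE-201 at 2.66 in mutant and 2.51 in parental cells and SGCE-275 at 2.14 and 2.26 in that order. The retained-intron SGCE-234 was at 0.114 in mutant and 0.263 in parental cells, with an unadjusted p of 0.00129 and an adjusted p of 0.341 by the authors' deposited table. Of the 93 tested SGCE transcripts SGCE-205 and SGCE-234 alone had an unadjusted p under 0.05 there. Over all 140552 tested transcripts 5.79% did. No transcript annotated for nonsense-mediated decay had p under 0.05, and the difference in their sum was not tested, since the table gives no values per library.

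**Figure D3:**
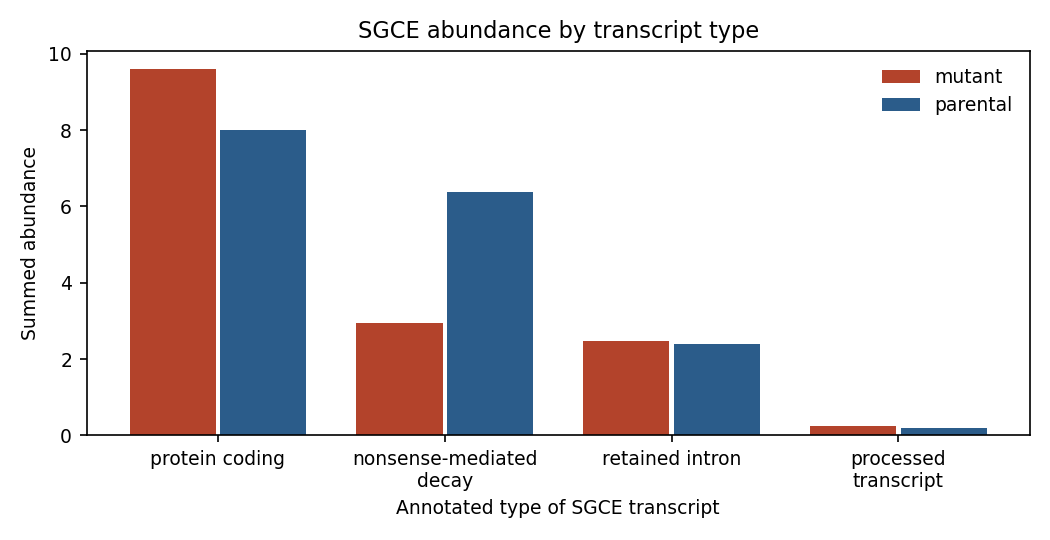
Summed abundance of SGCE transcripts by annotated type in mutant (left bars) and parental cells (right bars), from group means of 3 libraries, with axes from 0. Transcripts annotated for nonsense-mediated decay sum to 2.96 in mutant and 6.39 in parental cells, and protein-coding ones to 9.60 and 8.00 in that order.

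Of 8 listed genes at 7q21.3, 4 were kept and all 4 were lower in mutant cells, by a median log2 ratio of -0.14. CASD1, a sialic acid acetyltransferase gene, was at 3.99 in mutant and 5.23 in parental cells, and the paraoxonase PON2 at 11.9 in mutant and 14.3 in parental cells. PPP1R9A was at 1.25 in mutant and 1.32 in parental cells, and the homeobox gene DLX5 at 1.75 and 1.83 in that order. Of 8 genes of the sarcoglycan complex and its partners 5 were kept, 2 higher and 3 lower. The sarcoglycan gene SGCB was at 10.8 in mutant and 12.5 in parental cells, and the dystroglycan gene DAG1 at 14.6 in mutant and 18.7 in parental cells. SNTB1, a syntrophin gene, was at 4.81 in mutant and 8.08 in parental cells. None of the leading transcripts of these genes had p under 0.05 by the authors' deposited table.

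NNAT, which encodes neuronatin, a small membrane protein of neurons and endocrine cells, was at 0.0844 in mutant and 0.0576 in parental cells. It lies at 37521206 to 37523693 of chromosome 20, plus strand, inside BLCAP, which runs on the minus strand and is imprinted in brain. BLCAP was at 12.5 in mutant and 14.6 in parental cells. The NNAT level came from an estimated 5.1 to 22.0 reads in mutant and 2.4 to 4.0 reads in parental libraries, and without a stated strand setting reads of the 2 genes cannot be told apart there. NNAT-202 held 97.1% of the NNAT abundance in both groups, with p = 0.683 by the authors' deposited table. At these few reads the equal share is an estimate of the split and not a measured one. Of the 6 GENCODE transcripts of NNAT 2 are in the expression table.

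MEST, a paternally expressed gene of the hydrolase fold family, lies at 130486171 to 130506465 of chromosome 7, plus strand, and its 3' end overlaps that of COPG2. It was at 0.0396 in mutant and 0.0423 in parental cells, from an estimated 2.2 to 9.3 reads in mutant and 1.6 to 2.7 reads in parental libraries. Of its 10 tested transcripts 7 had the p of reads in 1 library. The leading one, the retained-intron MEST-216, was at 0.0251 in mutant and 0.0312 in parental cells. Of 6 listed genes at 7q32.2, 2 were kept, and both were lower in mutant cells. COPG2, a subunit of the vesicle coat, was at 9.08 in mutant and 11.4 in parental cells, and the centrosomal gene CEP41 was at 3.66 in mutant and 5.77 in parental cells.

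GNAS, which encodes the stimulatory G protein alpha subunit that couples receptors to adenylyl cyclase, was at 783.1 in mutant and 778.3 in parental cells, a log2 ratio of 0.01. It lies at 58839718 to 58911192 of chromosome 20, plus strand, hg38, and 41 of its 58 transcripts were tested. Transcripts that start at A/B, the window with 43 CpG printed above, summed to 430 in mutant and 445 in parental cells, 54.9% of the gene in mutant and 57.1% in parental cells. Those that start at the Gs alpha exon summed to 265 in mutant and 271 in parental cells, 33.8% and 34.8% in the same order. NESP55 transcripts were at 0.283 in mutant and 0.0956 in parental cells, and XL transcripts at 0.00197 in mutant cells and at 0.00 in parental cells to 2 decimals. The order of the starts was the same in both groups, with A/B above Gs alpha and both far above NESP55 and XL. A/B and Gs alpha transcripts share every exon after their own first ones, so the share of each rests on reads in those first exons and on the authors' estimate.

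**Figure D4:**
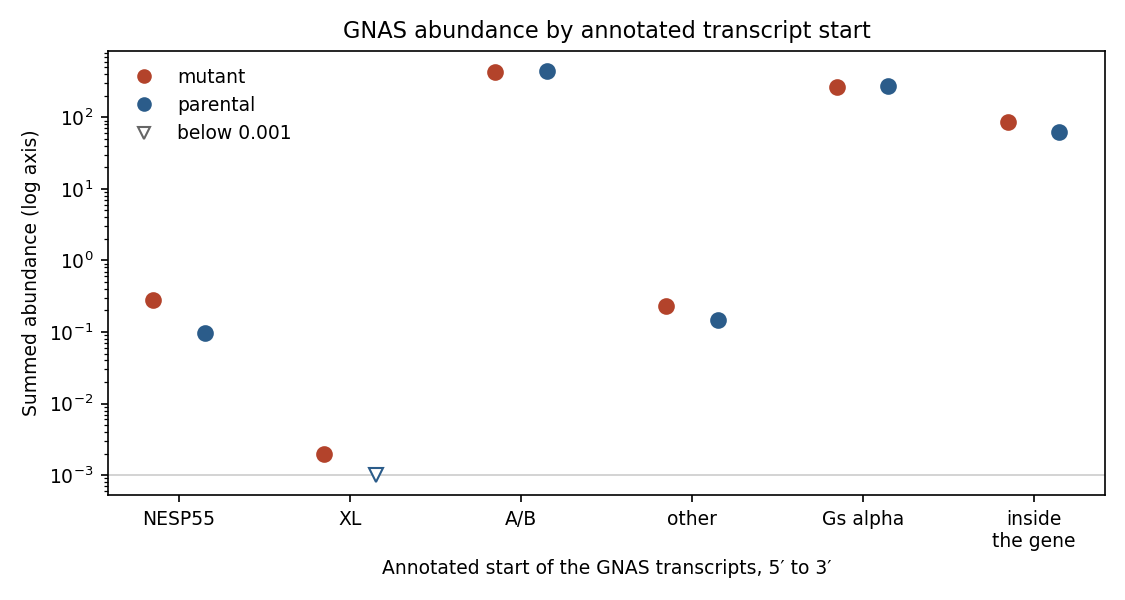
Abundance of GNAS transcripts summed by annotated start, in mutant (left points) and parental cells (right points), on a log axis with starts ordered along the gene. Points are sums of group means of 3 libraries, and the open triangle is a sum below 0.001. A/B and Gs alpha stand above 200 in both groups, and NESP55 is at 0.283 in mutant and 0.0956 in parental cells.

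The leading GNAS transcripts were close between the groups. The A/B transcript GNAS-238, without the cassette exon, had an abundance of 283 in mutant and 278 in parental cells, with p = 0.906 by the authors' deposited table. GNAS-234, an A/B transcript with the exon, was at 127 in mutant and 153 in parental cells, with p = 0.327 by the authors' deposited table. Of the Gs alpha mRNAs, GNAS-211 without the exon was at 119 in mutant and 124 in parental cells. Among the transcripts from the Gs alpha start those with the 45-base exon printed above made up 31.1% in mutant and 30.3% in parental cells. Among those from the A/B start they made up 29.8% in mutant and 34.6% in parental cells. The long and short Gs alpha forms thus stood in nearly the same ratio in both groups.

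Minor GNAS transcripts differed more. Those whose annotated start lies inside the gene, downstream of the Gs alpha exon, summed to 87.3 in mutant and 62.9 in parental cells, 11.15% and 8.08% of the gene in the same order, and 7 of the 8 tested were higher in mutant cells. The retained-intron GNAS-245 was at 47.2 in mutant and 28.98 in parental cells (unadjusted p = 0.0157, adjusted p = 0.643 by the authors' deposited table). The retained-intron GNAS-255 was at 3.46 in mutant and 1.76 in parental cells, with an unadjusted p of 0.0244 and an adjusted p of 0.703 by the authors' deposited table. GNAS-251, noncoding and starting near the Gs alpha exon, was at 1.25 in mutant and 0.000202 in parental cells, with an unadjusted p of 0.00093 by the authors' deposited table. GNAS-248 from the same region was at 0.712 in mutant and 0.0280 in parental cells, and GNAS-233 was at 1.00 in mutant and 0.286 in parental cells. Of the 41 tested GNAS transcripts 5 had an unadjusted p under 0.05 by the authors' deposited table, all higher in mutant cells. Over all tested transcripts 3.3% were higher at that line. None of the 5 passed after adjustment, and transcripts of a gene share exons, so the 5 are not separate events. Together they hold a small part of the gene, whose sum was nearly the same in both groups.

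Around GNAS, all 5 listed neighbours at 20q13.32 were kept, 2 higher and 3 lower in mutant cells. CTSZ, which encodes the lysosomal protease cathepsin Z, was at 0.195 in mutant and 7.56 in parental cells, a log2 ratio of -2.84. Its leading transcript had an unadjusted p of 0.000115 and an adjusted p of 0.175 by the authors' deposited table. CTSZ and GNAS-AS1 passed the abundance line through the parental group alone, so both had to be lower in mutant cells. STX16, a syntaxin gene that holds a control element of GNAS, was at 67.0 in mutant and 37.4 in parental cells, with p = 0.0794 for its leading transcript by the authors' deposited table. NPEPL1 was at 4.32 in mutant and 2.93 in parental cells, and the negative elongation factor gene NELFCD at 31.4 in mutant and 34.3 in parental cells. GNAS-AS1, the antisense RNA across the NESP55 start, was at 0.665 in mutant and 1.05 in parental cells, and without a stated strand setting its reads and those of NESP55 cannot be told apart where they overlap.

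The genes downstream of Gs alpha showed no common direction. Of 16 listed genes 15 were kept, 8 higher and 7 lower in mutant cells, with a median log2 ratio of 0.04, and 1 of the 7, ADCY5, was kept through the parental group alone. None had a leading transcript with p under 0.05 by the authors' deposited table. The protein kinase A genes PRKACB and PRKAR1B were at 3.56 and 2.40 in mutant cells, against 6.14 and 4.92 in parental cells. PRKAR2B was at 4.90 in mutant and 6.54 in parental cells, and the adenylyl cyclase ADCY9 was at 5.35 in mutant and 4.25 in parental cells.

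SNRPN, which encodes SmN, the spliceosome protein of neurons, is paternally expressed and was listed at 0 in both groups. It lies at 24823637 to 24978723 of chromosome 15, plus strand, and none of its 12 transcripts carried a value. The floor of 3 reads over a group corresponds to an abundance of 0.0146 in mutant and 0.0347 in parental cells for its longest transcript. SNURF, which shares its start region, NDN and MAGEL2 were also listed at 0, and SNHG14, the host RNA that runs across the cluster, was at 0.0402 in mutant and 0.00765 in parental cells. From MKRN3 to UBE3A there were 117 uniquely named genes of the expression table, 8 of them protein coding and 83 of them snoRNA genes. Of the 117, 7 were above 0 in at least 1 group. Only UBE3A, a ubiquitin ligase gene, and the ribosomal pseudogene RPL5P1 reached 0.1 there. Zeros at the short snoRNA genes say little about their RNAs. UBE3A was at 12.7 in mutant and 10.4 in parental cells, and RPL5P1 at 78.6 and 64.7 in that order, where reads of the parent gene RPL5 cannot be told apart. Beyond the imprinted interval NIPA1, NIPA2 and CYFIP1 were at 11.4, 16.0 and 16.7 in mutant cells, against 8.81, 16.0 and 13.7 in parental cells. All 4 kept genes of the 15 listed at 15q11.2 were higher in mutant cells, with a median log2 ratio of 0.27, though NIPA2 differed by 0.00.

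The 8 other spliceosome genes listed beside SNRPN were all expressed. All 8 were kept and all 8 were lower in mutant cells, with a median log2 ratio of -0.49. Of all 14856 kept genes 7514 were lower. A lower leading transcript with p under 0.05 by the authors' deposited table was held by 2 of the 8, against 8.53% of all kept genes. SNRPB, the closest relative of SNRPN, was at 176 in mutant and 299 in parental cells, with p = 0.0146 by the authors' deposited table for its leading transcript. SNRPB2, a protein of the U2 particle, was at 26.4 in mutant and 52.6 in parental cells (p = 0.00895 for its leading transcript by the authors' deposited table). SNRPD2 was at 242 in mutant and 276 in parental cells, and SNRPF at 45.1 in mutant and 48.0 in parental cells. None had an adjusted p under 0.05 by the authors' deposited table.

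The genes that keep imprints were expressed in part. Of 16 listed 11 were kept, 2 higher and 9 lower in mutant cells, with a median log2 ratio of -0.08, and no leading transcript had p under 0.05. UHRF1, which brings the maintenance methyltransferase to DNA, was at 25.2 in mutant and 54.8 in parental cells. Its leading transcript had p = 0.0754 by the authors' deposited table. That methyltransferase, DNMT1, was at 85.9 in mutant and 101 in parental cells, and the corepressor TRIM28 at 271 in mutant and 306 in parental cells. CTCF, the insulator protein that binds the control region of H19 and IGF2, was at 15.9 in mutant and 23.6 in parental cells. ARID4B was at 8.45 in mutant and 14.2 in parental cells, and the zinc finger gene ZNF445 at 2.98 in mutant and 3.02 in parental cells. ZFP57 was at 0.00907 in mutant and 0 in parental cells, and the oocyte genes DPPA3 and NLRP7 were listed at 0.

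In the wider list of 85 imprinted genes and cluster neighbours outside the members, 14 genes were at 0 in both groups, 34 were below 0.1 in both, these 14 included, and 40 were kept. Of the 40, 19 were higher and 21 lower in mutant cells, with a median log2 ratio of -0.04 beside -0.01 for all kept genes. A log2 ratio of 1 or more was held by 1 of them and one of -1 or less by 2, against 1.51% and 1.61% of the kept genes. Leading transcripts with an unadjusted p under 0.05 by the authors' deposited table were higher in 2 and lower in 4 of the 40, against 5.27% and 8.53% of the kept genes. Among the 40, 2 were kept through the mutant group alone and 3 through the parental group alone, which fixed their direction. None of the 512 tested transcripts of all 85 listed genes passed after adjustment. Outside the clusters of the members ZNF331, a zinc finger gene, was at 3.76 in mutant and 22.5 in parental cells. Its leading transcript had p = 0.00396 by the authors' deposited table. L3MBTL1, a chromatin-binding gene, was at 2.59 in mutant and 4.69 in parental cells (p = 0.0131 for its leading transcript by the authors' deposited table). The aminopeptidase gene ERAP2 was at 1.94 in mutant and 0.962 in parental cells, and it was kept through the mutant group alone. Its leading transcript had p = 0.0135 by the authors' deposited table. RB1, the retinoblastoma gene, was at 7.25 in mutant and 10.5 in parental cells. Across the 80 partner genes of the members 65 were kept, 24 higher and 41 lower, and the median log2 ratio was -0.09. All 8 spliceosome genes are among the 41. Also among them are IGFBP4, NOTCH4, DLL4 and ADCY5, which were kept through the parental group alone, so their direction was fixed. Of all 14856 kept genes 7342 were higher and 7514 lower.

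**Figure D5:**
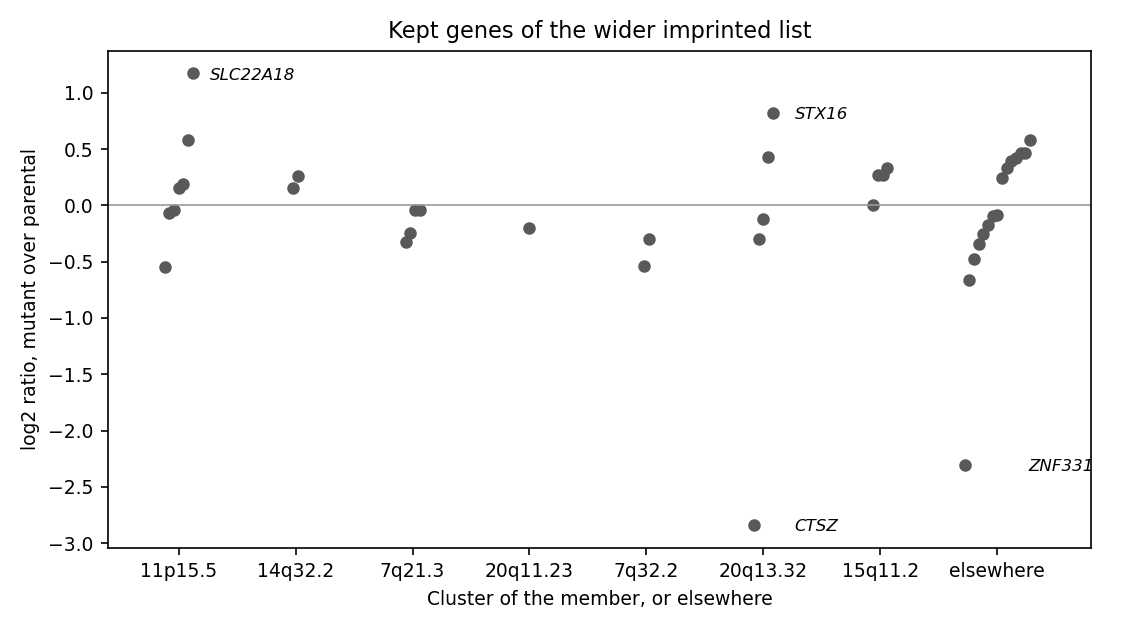
Log2 ratio of mutant over parental abundance, after 1 was added, for the 40 kept genes of the wider imprinted list, by the cluster of a member they belong to or elsewhere in the genome. Each point is a gene, the line marks 0, and the sideways offset within a cluster follows rank. CTSZ at -2.84 and ZNF331 at -2.31 are the lowest and SLC22A18 at 1.17 the highest.

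The genes with the levels most like a member in both groups, by the distance in log2 abundance plus 1 over the 2 group means, were MCPH1, FBXO25 and P3H2 for IGF2. For SGCE they were TOR1A, CHMP4A and PFKM, and for GNAS they were MIF, RPS12 and RPL13P12. MCPH1 was at 2.50 in mutant and 6.69 in parental cells, and TOR1A at 15.1 in mutant and 16.8 in parental cells. MIF was at 762 in mutant and 771 in parental cells.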

How the data were processed

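Per the labels' protocols, total RNA from HEK293 cells went into NEBNext Ultra RNA libraries primed with random primers. Per the submitters' processing notes, bcl2fastq, STAR and Partek were used with hg38. Not given in the sources used here were strand setting, poly(A) selection, tool versions and the transcript annotation.

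The authors' deposited table held group means, a ratio, a fold change and p-values for 203376 transcripts. The score LSMean is the authors' least-squares group mean per the file headers, and its values equalled abundance per length plus 1. The deposited signal called total counts was the sum of scaled values and not a read number. Deposited adjusted p-values equalled Benjamini-Hochberg adjustment over 140552 tested transcripts. The planned fits of single libraries needed values per library, so the authors' p-values were described and no test was added.

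Abundance was the group mean minus 1, and genes were sums over transcripts. Genes with at least 1 in either group were kept. Transcript names were matched to GENCODE 29, where 99.1% were found. Reads per library were estimated from repeated steps of abundance times length among transcripts with reads in 1 library of 6 (18902 transcripts with that p, within 1e-06), and read ranges assume all reads in the library with the largest or the smallest read size. These ranges and the floor of 3 reads cover counting error only.

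All members were named, with every transcript at p under 0.05 or with at least 10% of its gene, 33 in all. Of the wider and partner lists, all kept genes in the cluster of a member and the 4 others with the smallest p of the most abundant transcript were named, and further genes were picked after values were seen. The values of 1 gene that this rule names are not reported here. The members and lists were chosen with earlier results of these data known. Scripts were tested on simulated data. Python 3.11.15, numpy 2.4.6, pandas 2.3.3, scipy 1.17.1 and matplotlib 3.10.9 were used.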

Additional observations from a re-analysis of the deposited data

How the results depend on the processing

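Of 64 values computed under other settings 54 stayed within tolerance, which is 0.1 for a log2 ratio or median and 1.5 times for a count, and none changed direction. Some of the 54 could not move. A filter leaves the log2 ratio of a kept gene as it is, and the value added before log2 cannot change which group is higher. A stricter adjusted p cannot add to 0 calls. The share within tolerance therefore does not measure how stable the results are. Without a filter on low values 3 members were higher and 5 lower in mutant cells, and of the wider list 35 were higher and 36 lower. At an abundance of at least 5, 12 genes of the wider list were higher. With the most abundant transcript in place of the gene sum the median of the 3 kept members was -0.65, which is the value of SGCE, whose leading transcript is SGCE-231. IGF2 was at -1.53 with 0.1 added in place of 1 and at -1.37 with the GC trend taken off. An unadjusted p under 0.05 in the authors' deposited table gave 10 member transcripts, and an adjusted p gave 0. No paired analysis was possible because the table gives group means and no values per library. For the same reason leaving out single libraries and other normalizations or test tools (TMM, DESeq2 size factors) were not run. Depth limits DLK1, SNRPN, MEG3, MEST and NNAT, for which a difference between groups was not detectable.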

Other observations

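Further imprinted genes outside the clusters of the members had these levels. PEG3, a paternally expressed zinc finger gene, was at 0.00304 in mutant and 0 in parental cells, and ZIM2, ZIM3 and MIMT1 of its cluster were listed at 0. DIRAS3, a growth-restraining GTPase gene, was at 0.152 in mutant and 0.154 in parental cells. The zinc finger gene PLAGL1 was at 27.5 in mutant and 20.7 in parental cells, and the growth factor receptor adaptor GRB10 at 27.1 in mutant and 28.7 in parental cells.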
